A study of Mus musculus with 6 samples.

Results

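Hox genes encode homeodomain transcription factors that give cells along the head to tail axis their positional identity. The mouse carries 39 of them in 4 clusters, and their order along a cluster (paralogue groups 1 to 13) matches the order of the body regions in which they act in the embryo. Connective tissue and fat of the adult keep a Hox code that differs between body sites. In the female tract Hoxa9, Hoxa10, Hoxa11 and Hoxa13 mark successive segments from oviduct to vagina, and ovarian surface epithelium is known for low levels of them.

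The Hox genes of 6 mouse tumours were examined. Members were all genes named Hox with a cluster letter and a number whose probe set carried a single gene symbol in the platform annotation. Of the 39 Hox genes in the RefSeq gene table, 33 were members, among 30142 genes tested, and each had 1 probe set. They comprised 8 genes of cluster A, 9 of cluster B, 9 of cluster C and 7 of cluster D. Genes on probe sets with several symbols, Hoxa9 and Hoxb4 among them, were not analysed here.

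The tumours came from 3 mice, named C1M3, C1M5 and C2M3, that had received ID8-VEGF cells beneath the membrane enclosing the ovary. ID8 is a single line of transformed mouse ovarian surface cells, and its ID8-VEGF variant was made to produce vascular endothelial growth factor. By the donor label, each mouse gave a late-stage primary tumour and a metastatic tumour, and both groups therefore held 3 arrays from the same animals. The source name of the C2M3 primary tumour reads C2M2 instead, so statements within that mouse rest on its donor label. Where 3 values of a group are listed, they stand in the order C1M3, C1M5, C2M3. Age, strain, further treatment and the site of the metastatic tumours were not given in the sources used here. Whole tumours were profiled, so RNA of host cells was included, and fewer cells of a type and less RNA per cell cannot be told apart. The epithelial and mesothelial marker list was well above background on all arrays, with list means of log2 9.40 to 11.04. Of its 12 genes, 10 were above the background threshold on all 6 arrays, and the exceptions were Epcam and Cdh1, each above it on 2.

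A member was called above negative controls on an array when its log2 intensity exceeded the 95th percentile of the background probe sets of that array. These are 23 probe sets whose names mark them as background controls of stepped GC content. The median of these background sets was 3.09 to 3.22 over the arrays. The threshold lay between 5.16 and 5.18 on the 6 arrays. It was exceeded on all 6 arrays by 2 Hox genes, Hoxc6 and Hoxc9, against 41.1% of all genes tested, and on at least 1 array by 8, against 54.1% of all genes. The 8 genes were Hoxc4, Hoxc6, Hoxc8, Hoxc9, Hoxc10 and Hoxc12 of cluster C, and Hoxa6 and Hoxa10 of cluster A. No gene of cluster B or D exceeded the threshold on any array, with highest values of 5.09 and 4.78. None of the 6 measured genes of paralogue groups 1 to 3, which pattern the hindbrain and neck, exceeded it. Of 12 genes of groups 4 to 8, which pattern neck and trunk, 4 did so on at least 1 array. Of 15 genes of groups 9 to 13, which pattern the body from the thoracic to lumbar transition to the tail, 4 did.

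**Figure D1:**
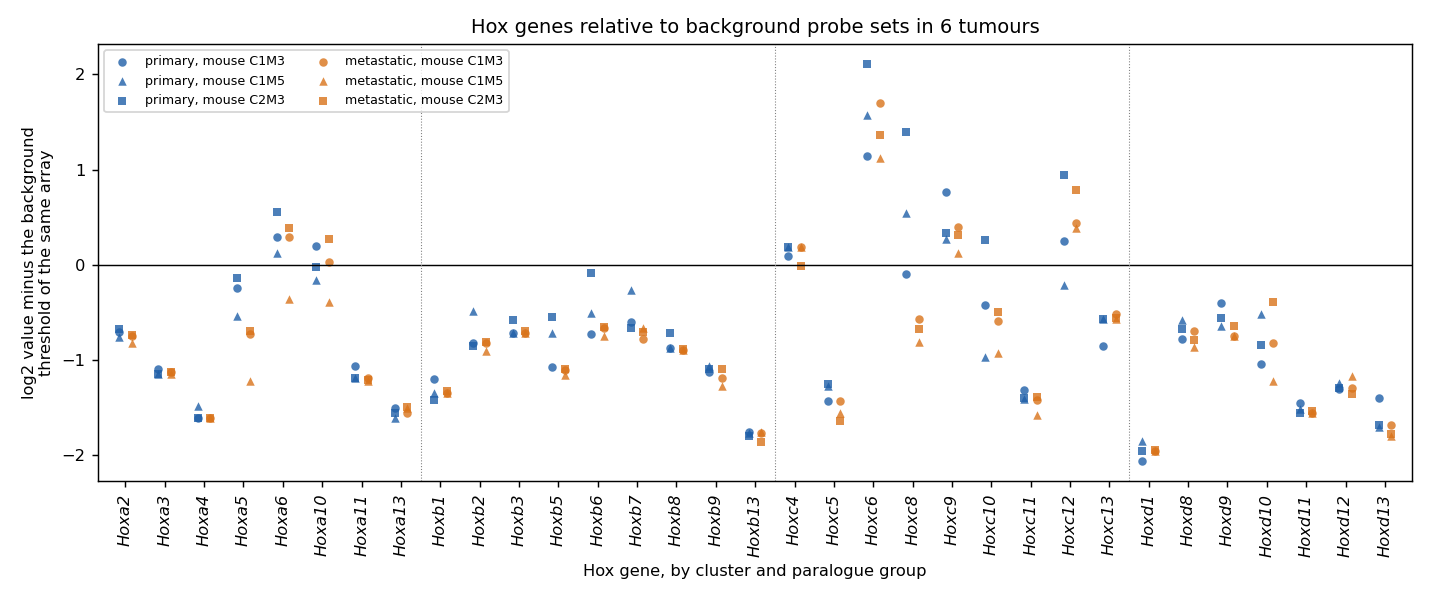
The log2 value of each of the 33 Hox genes minus the background threshold of the same array is plotted by cluster and paralogue group. Blue marks are primary and orange marks metastatic tumours, with a symbol for each mouse. Only Hoxc6 and Hoxc9 lie above 0 in all 6 tumours, and all of clusters B and D lie below it.

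How many Hox genes stood above background depended on the control. For the other controls the share of all genes above them was not computed, so these Hox counts have no baseline. With the 95th percentile of olfactory and vomeronasal receptor genes, whose range over arrays was 4.78 to 6.11, Hoxc6 alone was above on all 6 arrays, and the 99th percentile of the background sets also left Hoxc6 alone. A further 5222 probe sets bear a negative label in their names. Their median, 4.63 to 4.90, was exceeded on all arrays by 6 Hox genes, Hoxa6, Hoxa10, Hoxc4, Hoxc6, Hoxc9 and Hoxc12, whereas their 95th percentile, 8.04 to 8.79, was exceeded by none. Y-linked genes, which animals with an ovary lack as a rule, gave the level of silent probe sets. Of 7 measured, 6 lay between 3.71 and 4.42 on every array, but Sry lay between 8.09 and 8.62, above every Hox value. A value over the background threshold was therefore a position relative to these controls and not a measure of expression by itself.

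**Figure D2:**
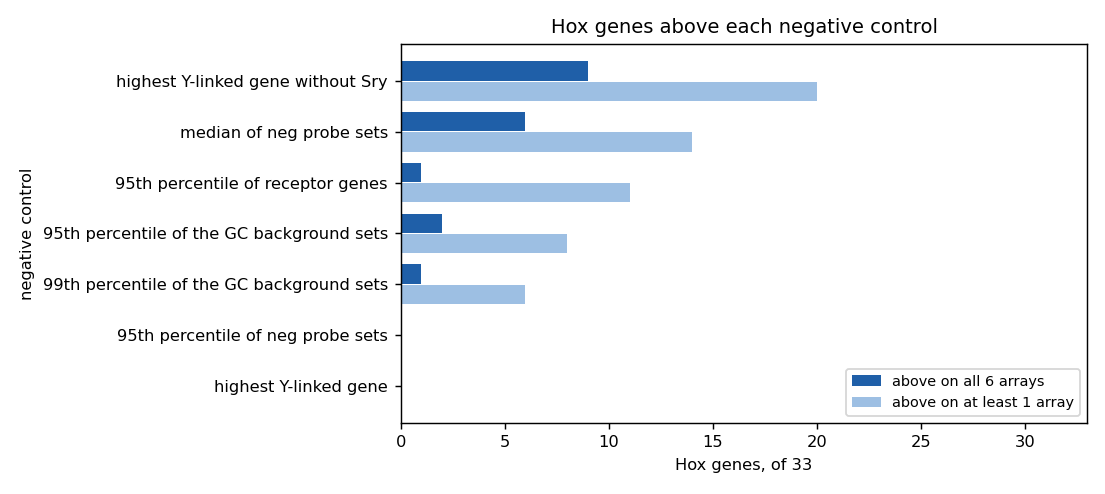
The number of Hox genes, of 33, that lie above each negative control is shown by dark bars for all 6 arrays and light bars for at least 1 array. The count on all arrays runs from 0 to 9 with the choice of control.

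Some Hox genes had identical values on several arrays, as did many other genes. At least 2 arrays shared exactly the same value in 17 of the 33 Hox genes, against 51.4% of all genes, and 7 Hox genes had the same value on at least 4 arrays, against 13.8% of all genes. Hoxd1, for instance, a gene of the anterior end of its cluster, was at 3.22 on 4 arrays, and the C1M3 and C1M5 primary tumours had 3.12 and 3.33. The range over the 6 arrays was under 0.5 for 21 Hox genes and over 1 for 4, which were Hoxc8, Hoxc10, Hoxc12 and Hoxa5. The median range was 0.34 for the Hox genes and 0.50 for all genes.

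Sequences of the cluster are shown for the Hoxa5 and Hoxa6 genes, neighbours of which the first was lower in the metastatic tumour of each mouse without overlap of the groups and the second stood above background on 5 arrays. The windows hold the 250 bases before the RefSeq start on the minus strand of GRCm38.p6, at chr6:52204588-52204837 for Hoxa5 and chr6:52208673-52208922 for Hoxa6. Capitals mark the dinucleotide CG, the site of DNA methylation in mammals.
Hoxa5: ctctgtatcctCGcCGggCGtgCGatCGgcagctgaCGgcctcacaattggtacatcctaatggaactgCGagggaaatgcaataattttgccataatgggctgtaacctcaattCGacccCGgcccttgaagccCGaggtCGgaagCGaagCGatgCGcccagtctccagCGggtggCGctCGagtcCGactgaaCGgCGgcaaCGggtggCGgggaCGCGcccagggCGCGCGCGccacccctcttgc
Hoxa6: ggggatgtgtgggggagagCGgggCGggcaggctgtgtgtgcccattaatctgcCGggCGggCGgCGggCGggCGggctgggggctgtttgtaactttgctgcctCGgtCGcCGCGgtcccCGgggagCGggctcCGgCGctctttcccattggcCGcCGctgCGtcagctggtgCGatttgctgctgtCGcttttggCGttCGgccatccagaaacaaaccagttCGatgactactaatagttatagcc

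The Hoxa5 window held 28 CG and the Hoxa6 window 24. Windows were matched for 17 of the 33 members, 19 windows in all, and at least 10 CG were found in 13 of these, against 37.8% of all promoter windows of the same length. The motif TATAAA, searched on both strands, was present in 3 of the 19 windows, against 12.37% of all windows, and in neither of those shown. A match or its absence is a description of these letters only.

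The clusters also hold microRNA genes of the miR-10 and miR-196 families, and miR-196 is known to repress Hoxb8. Their mature sequences, from RefSeq, are given with the seed (bases 2 to 8) in capitals, because precursors of 2 of them share probe sets with Hoxb4 and Hoxa9 and so removed those genes from the members.
miR-10a-5p: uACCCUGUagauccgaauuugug
miR-10b-5p: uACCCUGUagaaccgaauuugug
miR-196a-5p: uAGGUAGUuucauguuguuggg
miR-196b-5p: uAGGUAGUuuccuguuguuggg

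The miR-10 pair shared a seed, as did the miR-196 pair. In GRCm38.p6 miR-10a-5p lies at chr11:96317186-96317208 (plus strand), miR-10b-5p at chr2:74726074-74726096 (plus), miR-196b-5p at chr6:52230129-52230150 (minus), and miR-196a-5p at both chr11:96265187-96265208 and chr15:102973365-102973386 (plus). Of 17 noncoding RNA genes of the clusters, 6 were measured and 5 of these never exceeded the background threshold. Array probe sets report the precursor genes, not the mature RNA. Mir196a-2 of cluster C had log2 intensities of 5.47, 5.17 and 4.98 in primary tumours, and its metastatic values were 5.57, 5.81 and 5.34, a difference of 0.37 (SE 0.18, limma adjusted p = 0.842). It was higher in the metastatic tumour of each mouse, and the groups overlapped. Mir10b of cluster D lay between 3.21 and 4.18, with its highest value in the primary tumour of C2M3. The long noncoding RNA gene Hotair of cluster C lay between 4.04 and 4.10 on every array.

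Metastatic tumours had a lower mean than primary tumours for 29 of the 33 Hox genes, against 43.9% of all genes tested, and a higher mean for 4, against 55% of all genes, but no Hox gene passed the test of difference. At an adjusted p threshold of 0.05, limma called 0 Hox genes and 0 of 30142 genes (0%), and the Hox genes reached 0.842 at best. The median difference, metastatic minus primary, was -0.08 for the Hox genes and 0.02 for all genes, and 17 of the 33 differences were under 0.1 in size. At an unadjusted p under 0.05, limma placed 3 Hox genes lower (Hoxc8, Hoxa5 and Hoxc5), against 1.33% of all genes, and 0 higher, against 2.88%. With the mouse as a block, 2 were lower at an unadjusted p under 0.05 (Hoxc8 and Hoxa5), against 1.97%, and 0 were higher, against 2.96%. In that fit the smallest adjusted p was 0.841. Centring each array on its median shifted every difference by -0.11. The share of all genes with a lower mean was then 69.6%, and 31 of the 33 Hox genes had a lower mean, with a median of -0.18.

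Within mice, the median difference of the Hox genes was -0.02 in C1M3, -0.11 in C1M5 and -0.08 in C2M3, beside -0.02, 0.0003 and 0.05 for all genes. In all 3 mice the metastatic tumour was lower for 11 Hox genes, against 8.64% of all genes, and in none was it higher throughout, against 11.1%. The groups did not overlap for 5 Hox genes, all lower in metastatic tumours: Hoxa5, Hoxb5, Hoxb8, Hoxc8 and Hoxd9. The separation was narrow for Hoxb8, at 4.30, 4.31 and 4.46 in primary tumours and 4.28 in each metastatic tumour. Hoxb8 differed by -0.08 (SE 0.06) and Hoxd9 by -0.19 (SE 0.08). Of all genes, 2.84% were lower and 4.79% higher without overlap, and no Hox gene was higher in that way. When each tumour was left out in turn the lower count was 6 to 9, against 4.25% to 8.6% of all genes. Without both tumours of C1M3 it was 12, against 11.4%. Without those of C1M5 it was 8, against 8%, and without those of C2M3 it was 9, against 11.2%. Leaving out arrays can only keep or raise such a count, so these settings do not measure its stability. These 5 genes were chosen after their values were seen, and 4 of them never exceeded the background threshold.

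**Figure D3:**
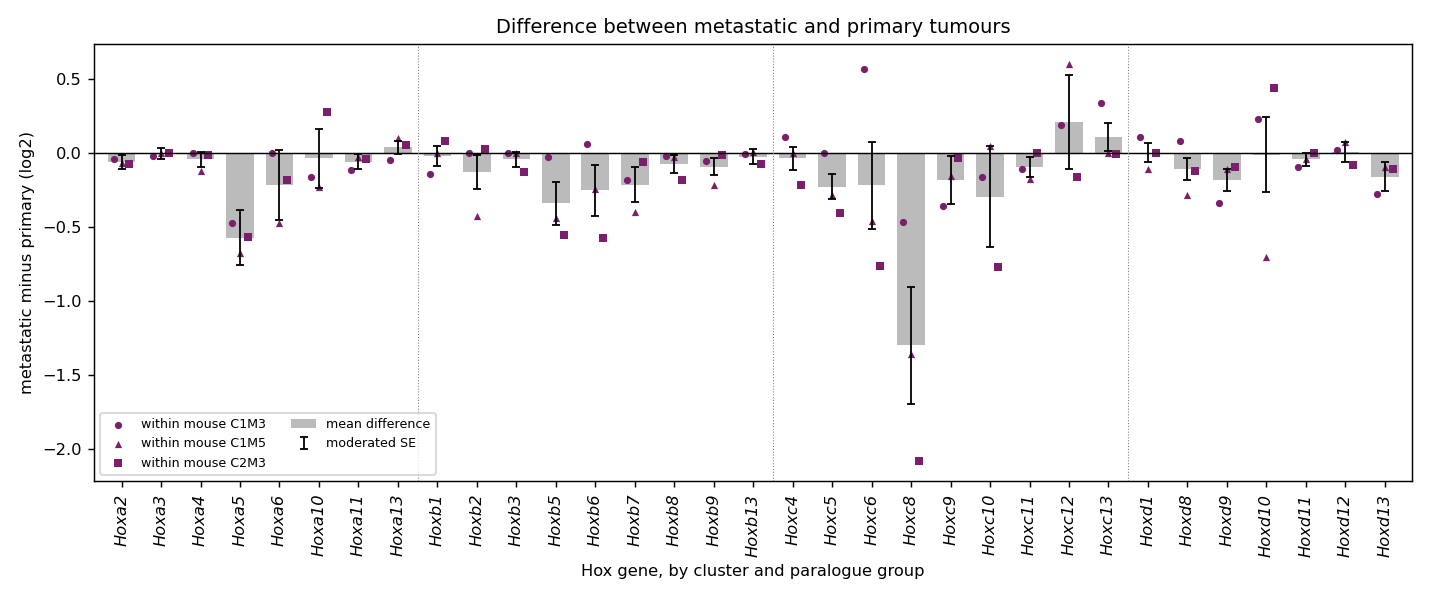
Grey bars give the mean difference, metastatic minus primary, of each Hox gene on the log2 scale, lines give the moderated standard error of limma, and purple marks give the difference within each mouse. Hoxc8 has the lowest bar, at -1.30, and 29 of the 33 bars lie below 0.

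Hoxc8, a gene of the thoracic region that is also known as a regulator in white fat precursors (Entrez Gene 15426), had the largest difference. It was the only Hox gene at least 2-fold lower by its mean, against 0.567% of all genes, and 0 were at least 2-fold higher, against 1.61%. Its log2 intensities were 5.08, 5.72 and 6.58 in primary tumours, whereas metastatic tumours had 4.61, 4.36 and 4.49. All 3 primary values were above all 3 metastatic values, and only the primary tumours of C1M5 and C2M3 exceeded the background threshold. The difference was -1.30 (SE 0.40, 95% confidence interval -2.32 to -0.29, limma adjusted p = 0.842). Within the mice it was -0.47, -1.36 and -2.08. Without the primary tumour of C2M3 it was -0.91.

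The primary tumours in which Hoxc8 was higher also had higher list means of fat, smooth muscle, vessel, fibroblast, macrophage and lymphocyte markers. Of the 12 adipocyte markers 10 were measured, and the metastatic mean was lower for each of the 10. Their list mean was 6.02, 9.14 and 11.30 in primary tumours, and 5.80 to 6.23 across the metastatic ones. Smooth muscle markers (8 of 8 measured) had list means of 6.07, 7.44 and 8.17 in primary tumours and 6.48 to 6.61 in metastatic ones. Blood endothelial markers (8 of 9) had 6.18, 7.10 and 8.56 against 5.92 to 7.23. Fibroblast markers (10 of 11) had 6.47, 8.73 and 9.72 in primary and 7.95, 7.75 and 8.84 in metastatic tumours. Macrophage markers (11 of 11) had 6.50, 8.65 and 9.21 in primary and 8.36 to 9.26 in metastatic tumours, and lymphocyte markers (8 of 9) 4.55, 4.89 and 5.32 against 4.93 to 5.38. The primary tumour of C1M3 stood apart, with the lowest array weight in limma, 0.264, against 0.731 to 2.283 for the other arrays, and without it the Hoxc8 difference was -1.66. In mouse C1M3 Hoxc8 was lower by 0.47 in the metastatic tumour, where the adipocyte list had a median difference of 0.19 and the fibroblast list of 1.46. The part of these cell types in the Hoxc8 values was not tested.

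**Figure D4:**
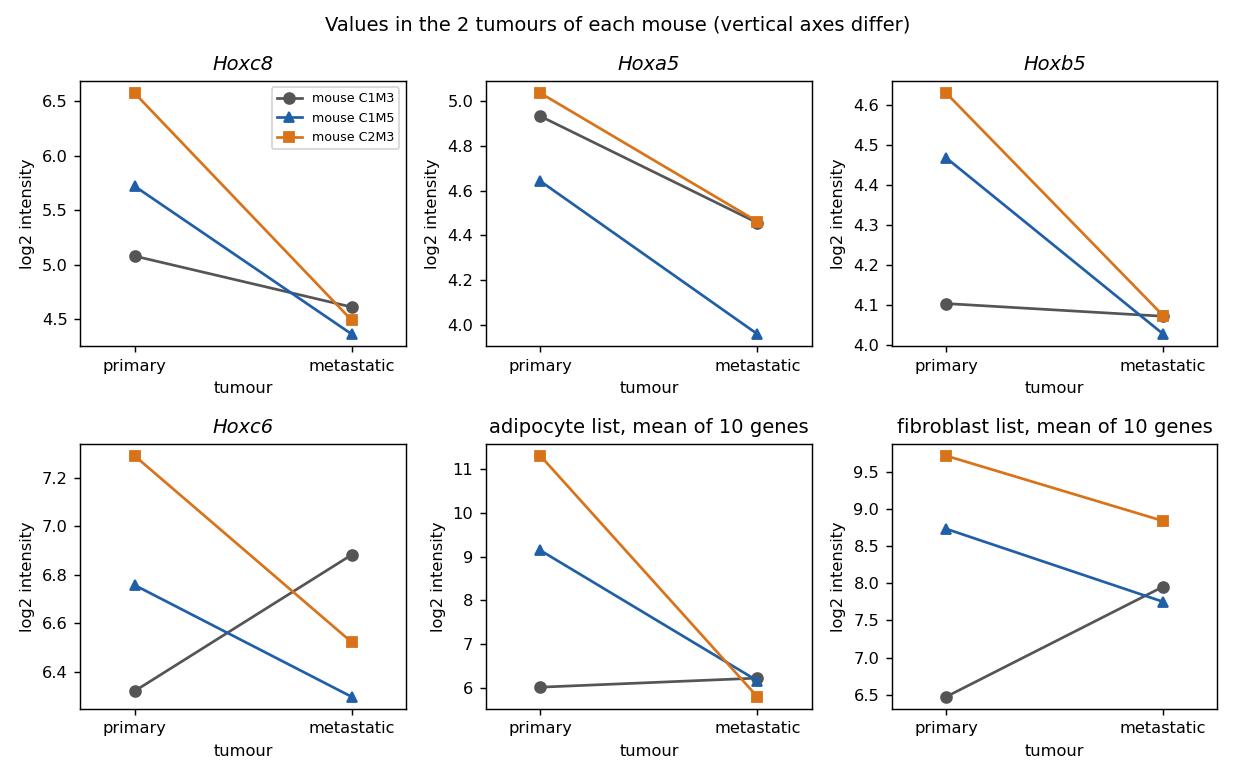
Log2 intensities of 4 Hox genes and the mean log2 intensity of the adipocyte and fibroblast marker lists are joined by lines from the primary to the metastatic tumour of each mouse. Hoxc8 and Hoxa5 are lower in the metastatic tumour of all 3 mice, while Hoxc6 is higher in that of C1M3. The vertical axes differ between panels.

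Hoxa5, a gene of lung and neck patterning (Entrez Gene 15402) whose upstream sequence is shown above, was lower by 0.48 to 0.68 in the metastatic tumour of each mouse. Primary tumours had 4.93, 4.64 and 5.04, and metastatic tumours 4.46, 3.96 and 4.46. The groups did not overlap, but every value lay below the background threshold. Its differences were -0.48, -0.68 and -0.57 within the mice, and their mean was -0.58 (SE 0.19, limma adjusted p = 0.842). With the mouse as a block the SE was 0.069, the unadjusted p 0.0034 and the adjusted p 0.841. The adipocyte list means were 6.02, 9.14 and 11.30 in primary and 6.23, 6.17 and 5.80 in metastatic tumours. Within the mice the list had median differences of 0.19, -2.65 and -5.59. The part of fat cells in the Hoxa5 difference was not tested.

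Neighbouring genes of cluster B had smaller differences. Hoxb5, which acts in enteric nerve and vessel precursors, had 4.10, 4.47 and 4.63 in primary and 4.07, 4.03 and 4.07 in metastatic tumours, without overlap. The difference was -0.34 (SE 0.14, limma adjusted p = 0.842), and within C1M3 it was -0.03. Hoxb6, a trunk gene, had 4.45, 4.67 and 5.09 in primary and 4.51, 4.43 and 4.51 in metastatic tumours, and only C1M5 and C2M3 were lower. Both genes stayed below the background threshold on every array. In all, 6 Hox genes (Hoxb5, Hoxb6, Hoxb8, Hoxc5, Hoxc6 and Hoxc8) had primary values in the order C2M3, C1M5, C1M3 from high to low, against 10.6% of all genes. The highest of the 6 arrays was the primary tumour of C2M3 for 12 of 33 Hox genes, against 10.4% of all genes. The lowest was the metastatic tumour of C1M5 for 16 Hox genes, against 9.86% of all genes. The list mean of ovarian granulosa, theca and luteal markers (8 of 10 measured) was 5.60 in that tumour and 6.30 to 6.91 elsewhere. Inha, a granulosa cell hormone subunit, carried most of that gap, at 10.24 against 13.56 to 16.32, while Star, Cyp17a1, Fshr and Hsd3b1 were not lowest there on their own. Of the same list, Foxl2, Amh and Fshr stayed below the background threshold on every array. List means of blood endothelial (5.92), oviduct and uterus (4.55) and haematopoietic progenitor markers (5.77) were also lowest in the metastatic tumour of C1M5. No measured haematopoietic progenitor gene was lowest there on its own, and of the oviduct and uterus genes only Emx2 and Esr1 were. Of the blood endothelial genes, Cldn5 and Pecam1 were lowest in the primary tumour of C1M3 instead. The part of any of these cells in the Hox values was not tested.

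Hoxc6, a thoracic gene that lies next to Hoxc8 in the cluster (Entrez Gene 15425), was the member farthest above background. Primary tumours had 6.32, 6.76 and 7.29, and metastatic tumours 6.88, 6.30 and 6.52. The groups overlapped, and the difference was -0.22 (SE 0.30, limma adjusted p = 0.861, 95% confidence interval -0.98 to 0.54). It was higher by 0.56 in the metastatic tumour of C1M3 and lower by 0.46 and 0.77 in those of C1M5 and C2M3. The sign rested on the primary tumour of C2M3, since the difference was 0.03 without it.

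Hoxc9, a gene of the thoracic to lumbar transition (Entrez Gene 15427), was the other member above background throughout. Its values were 5.94, 5.45 and 5.51 in primary and 5.58, 5.30 and 5.47 in metastatic tumours, lower in each mouse but with overlapping groups. The difference was -0.19 (SE 0.16, limma adjusted p = 0.842), and -0.033 without the primary tumour of C1M3. Hoxc10, a lumbar gene also known from subcutaneous fat, exceeded the threshold only in the primary tumour of C2M3, at 5.44, against 4.21 to 4.75 in the other 5 tumours. Its difference of -0.30 (SE 0.34) was 0.02 without that tumour.

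Hoxc12, a gene of the tail end of cluster C, had the largest difference toward metastatic tumours. Its values were 5.43, 4.97 and 6.12 in primary tumours, against 5.62, 5.57 and 5.95 in the metastatic ones. The difference was 0.21 (SE 0.32, limma adjusted p = 0.881). It was higher in the metastatic tumour of C1M3 and C1M5 but lower in that of C2M3, and without the primary tumour of C1M5 the difference was -0.06. Hoxc13, which acts in hair and nail, also had a higher mean, by 0.11 (SE 0.09). The remaining members with a higher mean were Hoxa13 at 0.04 (SE 0.05) and Hoxd12 at 0.003 (SE 0.07). Hoxc13, Hoxa13 and Hoxd12 lay below the background threshold on every array. Hoxa13 and Hoxd12 turned to -0.07 and -0.10 when arrays were centred. Hoxc4, known from lymphocytes, was at 5.37 on 4 arrays. The exceptions were the C1M3 primary at 5.27 and the C2M3 metastasis at 5.15, and the gene differed by -0.04 (SE 0.08). Its sign turned without the latter tumour, to 0.03.

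Among the genes that mark segments of the Mullerian duct, Hoxa10, which uterine implantation requires, had 5.37, 5.02 and 5.16 in primary and 5.21, 4.79 and 5.44 in metastatic tumours. The groups overlapped widely and the difference was -0.04 (SE 0.20), with both signs among settings that left out a tumour or a mouse (-0.20 to 0.14). Hoxa11, of the uterus and cervix, lay between 3.95 and 4.11, and Hoxa13, of the vagina and the limb ends, between 3.57 and 3.67. Both lay below the background threshold on every array. Hoxa6, a trunk gene between them and Hoxa5, exceeded the background threshold except in the metastatic tumour of C1M5. It had 5.47, 5.30 and 5.73 in primary and 5.47, 4.82 and 5.55 in metastatic tumours and differed by -0.22 (SE 0.24), or by 0.008 without the metastatic tumour of C1M5. Hoxb13 and Hoxd13, genes of the prostate and of digits, lay between 3.30 and 3.42 and between 3.38 and 3.78.

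Partners and regulators of Hox genes were taken from 7 lists, and none of their measured genes passed the limma test at an adjusted p of 0.05 or at an unadjusted p of 0.05. The median differences below stand beside 0.02 for all genes. Of the TALE cofactors, homeodomain proteins that bind DNA together with Hox proteins, 8 of 9 were measured and 5 exceeded the threshold on all arrays, with a median difference of -0.02. Meis2 had 9.44, 8.60 and 8.83 in primary and 9.05, 8.48 and 8.83 in metastatic tumours, and Pknox2, with the largest difference of the list, differed by 0.21 (SE 0.55). Polycomb genes, whose products keep silent Hox genes repressed, in part through methylation of histone H3, were measured for 27 of 29. Of these, 24 exceeded the threshold on all arrays. Their median difference was -0.03. Ezh2, the methyltransferase of dividing cells, was highest in the primary tumour of C1M3, at 10.50, against 8.42 to 9.69 elsewhere, and differed by -0.35 (SE 0.59). Its paralogue Ezh1 was lowest in that tumour, at 11.06, against 11.83 to 12.61, and differed by 0.63 (SE 0.40). The mitosis markers were also highest there, with a list mean of 9.52, against 6.93 to 8.21, and their part in the Ezh2 values was not tested.

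Trithorax genes and the demethylases that remove the Polycomb mark were measured for 15 of 16, all above the threshold on all arrays, with a median difference of -0.15. A lower metastatic mean was found for 13 of these 15, for 18 of the 27 Polycomb genes and for 5 of the 8 cofactors, against 43.9% of all genes, or 69.6% with centred arrays. Kdm6b, a demethylase that opens Hox genes, had 7.52, 7.05 and 7.17 in primary and 7.06, 6.67 and 6.53 in metastatic tumours and differed by -0.49 (SE 0.19, limma adjusted p = 0.842). Kdm6a differed by 0.43 (SE 0.28), Men1 by -0.33 (SE 0.20) and Kmt2c by -0.28 (SE 0.20). Of the 13 caudal, Evx, Mnx and related homeobox genes, some of which adjoin or activate Hox clusters, all were measured. Of these, 12 stayed below the threshold on every array. The exception was Meox1, a factor of somites and endothelium, at 6.95 in the primary tumour of C2M3 and 4.68 to 5.49 in the others. Retinoic acid and growth factor regulators of Hox genes (21 of 25 measured) had a median difference of -0.03. Aldh1a2, which makes retinoic acid in mesothelium, had 6.61 in the metastatic tumour of C1M5 and 5.75 to 5.97 in the others, and differed by 0.35 (SE 0.21). Genes reported as Hox targets (13 of 15 measured) had a median difference of -0.01. Emx2, a urogenital factor that Hoxa10 is known to repress in the uterus, had 6.47, 4.65 and 4.99 in primary and 5.24, 3.99 and 4.23 in metastatic tumours. It was lower in each mouse, by 0.88 on average (SE 0.61), and exceeded the background threshold only in the 2 tumours of C1M3. Tgfb2, with the next largest difference of the list, was above the threshold on all 6 arrays and differed by 0.78 (SE 0.45).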

How the data were processed

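The authors deposited log2 intensities for each probe set of 1-colour whole-transcript arrays. RMA and the Transcriptome Analysis Console are listed in the submitters' processing notes, with no version. Scanner files were not used here. Of 65956 non-control probe sets, 30604 carried 1 gene symbol in the platform annotation, 2146 several and 33206 none. Symbols were updated through Entrez Gene identifiers with a RefSeq table of GRCm38.p6, and each of 30142 genes was represented by its probe set of highest mean. Dim genes were not filtered out.

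Groups came from the tissue label and mice from the donor label. For the primary tumour of C2M3 the donor label was used, although its source name reads C2M2. Metastatic and primary tumours were compared over all genes with limma 3.58.1 in R 4.3.3 (tissue as the only term, empirical Bayes, two-sided, Benjamini-Hochberg). The 2 tumours of a number come from 1 mouse, and an alternative fit blocked on the mouse. Deviations of paired tumours from their group means correlated with r = -0.05 in C1M3, 0.35 in C1M5 and 0.07 in C2M3. The highest r of these primary tumours with the metastatic tumour of another mouse was 0.13, -0.02 and 0.09. The fit was tested on simulated data.

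Named genes were the Hox genes above the threshold on all arrays or all arrays of a group, the 4 Hox genes with the largest difference in each direction, the genes of the Mullerian duct order (Hoxa9, Hoxa10, Hoxa11 and Hoxa13, of which Hoxa9 was no member), and up to 4 genes per regulator list. Others were added after their values were seen. The members and lists were chosen with earlier results of these data known. Other alternatives were the background control, centring, array weights, a level filter, the mean of a gene's probe sets and leaving out tumours or mice. Of further marker lists, those of bowel and skeletal muscle had list means of 4.16 to 4.24 and 4.53 to 4.59.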

Additional observations from a re-analysis of the deposited data

How the results depend on the processing

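In every setting limma called 0 genes and 0 Hox genes. With the mouse as a replicate block, in which the numbers pair the tumours of a mouse, the median difference of the Hox genes was -0.08 and no call changed. The median was -0.18 with centring and -0.19 among the 7 Hox genes above the median level of all genes. It ranged from -0.13 to -0.055 when tumours or mice were left out. The number with a lower mean ranged from 26 to 29 in those settings, against 36.2% to 50.4% of all genes. The number lower without overlap was 5 with all tumours and 6 to 12 in those settings, against 4.25% to 11.4% of all genes. Leaving out arrays can only keep or raise the latter number. Above negative controls on all arrays, the count of 2 was 1 with the 99th percentile of the background sets, 1 with receptor genes, 0 with the highest Y-linked gene and 0 with the 95th percentile of the negative-labelled probe sets. It was 6 with the median of those sets and 9 with the highest Y-linked gene other than Sry. On at least 1 array the count of 8 was 0, 0, 14 and 20 with the last 4 of these controls. The share of all genes was not computed for these other controls. The control sets marked negative and the list without Sry were added after seeing the data, as were the counts of lower means and of groups without overlap under other settings. Centring turned Hoxa13 to -0.0705 and Hoxd12 to -0.10. Leaving out tumours or mice gave both signs for Hoxa6 (-0.36 to 0.0078), Hoxa10 (-0.20 to 0.14), Hoxc4 (-0.11 to 0.0508), Hoxc6 (-0.61 to 0.0507), Hoxc10 (-0.59 to 0.0206), Hoxc12 (-0.0622 to 0.51), Hoxc13 (-0.0063 to 0.17) and Hoxd12 (-0.0504 to 0.0503). The cause of these changes was not tested. Hoxc8 stayed between -1.72 and -0.91, Hoxa5 between -0.69 and -0.41 and Hoxc9 between -0.28 and -0.033. Most members lie near the background signal, and 3 arrays a group limit the precision of every value.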
